A study of Mus musculus with 12 samples.

Results

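The serum amyloid A (Saa) family was followed in mouse liver during the first hours after partial hepatectomy. The 4 members, Saa1, Saa2, Saa3 and Saa4, were chosen by name and are 4 of the 54532 genes in the deposited table. All 4 passed the filter on low values and were tested. Liver tissue of wild-type C57/BL6J mice gave 12 RNA libraries: a sham operation supplied 3, and resection of 70% of the liver (PHx, partial hepatectomy) supplied 3 at 3 h, 3 at 6 h and 3 at 12 h. All mice shared strain and genotype, the labels give no age, and no hour is given for the sham operation. For PHx 6 h replicate 3 the time tag reads 7 h but the title 6 h, and the title decided its group. Nothing states that libraries of a group are separate animals, so the p-values measure the spread between libraries, which may be technical.

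Serum amyloid A proteins are small secreted apolipoproteins that bind high density lipoprotein (HDL). In mice, Saa1 and Saa2 are the main acute phase forms, made by hepatocytes when interleukin 6, interleukin 1 and tumour necrosis factor act through STAT3, NF-kB and C/EBP factors. Saa3 is an inducible form that macrophages, adipocytes and epithelia also make. Saa4 is known as the constitutive form. Fragments of serum amyloid A are the protein of AA amyloid deposits.

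The members lie within 42.3 kb of chromosome 7 on GRCm38. In the deposited coordinates, Saa3 (ENSMUSG00000040026) spans 46711998 to 46715700, Saa4 (ENSMUSG00000040017) 46727998 to 46732603 and Saa1 (ENSMUSG00000074115) 46740497 to 46742980, all on the minus strand. Saa2 (ENSMUSG00000057465) spans 46751790 to 46754313 on the plus strand, so Saa1 and Saa2 point away from each other from starts 8.81 kb apart. The promoters are shown so that the members can be compared in sequence upstream of their start sites. Each line holds bases -250 to -51 before the RefSeq start site (GRCm38.p6), 5′ to 3′ on the gene's own strand. Capitals mark matches to the C/EBP motif TTGCNNAA on either strand.
Saa1: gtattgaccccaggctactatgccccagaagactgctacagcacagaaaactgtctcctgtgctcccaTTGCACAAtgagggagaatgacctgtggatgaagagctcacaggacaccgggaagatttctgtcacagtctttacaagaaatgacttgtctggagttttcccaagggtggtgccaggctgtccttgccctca
Saa2: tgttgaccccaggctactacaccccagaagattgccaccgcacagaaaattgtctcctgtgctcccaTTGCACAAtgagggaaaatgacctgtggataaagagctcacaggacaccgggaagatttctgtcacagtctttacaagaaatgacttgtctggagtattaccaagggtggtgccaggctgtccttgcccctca
Saa3: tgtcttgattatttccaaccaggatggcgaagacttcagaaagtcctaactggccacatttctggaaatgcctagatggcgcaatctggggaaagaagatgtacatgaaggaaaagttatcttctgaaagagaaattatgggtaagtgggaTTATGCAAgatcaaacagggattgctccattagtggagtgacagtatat
Saa4: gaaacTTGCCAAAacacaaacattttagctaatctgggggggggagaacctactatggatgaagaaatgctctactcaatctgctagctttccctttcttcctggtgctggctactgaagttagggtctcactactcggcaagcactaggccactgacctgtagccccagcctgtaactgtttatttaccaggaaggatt

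These windows are chr7:46743031-46743230 (minus strand) for Saa1, chr7:46751583-46751782 (plus strand) for Saa2, chr7:46715727-46715926 (minus strand) for Saa3 and chr7:46732654-46732853 (minus strand) for Saa4. In a global alignment the Saa1 and Saa2 windows were identical at 188 of 199 aligned bases, or 94.5%. Between the other pairs of members the identity was 56.0% to 61.3%. Each window held 1 match to TTGCNNAA, which is present in 8.11% of the 32851 promoter windows of the same length. The match starts at base -182 in Saa1, -183 in Saa2, -99 in Saa3 and -245 in Saa4, and in Saa1 and Saa2 it reads TTGCACAA. The NF-kB motif, GGG and TTTCC with 2 bases between them (in 1.05% of windows), and the STAT motif TTCNNNGAA (in 5.76%) were searched on both strands, with no match in these letters in any of the 4 windows. A match in letters is a description and does not show binding, and a missing match does not show that a site is absent. Bases nearer the start site than these windows were not searched.

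Saa1 and Saa2 are close copies, and how reads matching both were counted is not stated, so their separate values are uncertain to that extent. Their coding transcripts, 609 and 606 bases long in GENCODE M21, were identical at 572 of 606 aligned bases (94.4%). Of the stretches of 50 bases in the Saa1 transcript, 14.8% also occurred in a transcript of another member, and in Saa2 13.3%. For Saa3 this share was 1.78%, and for Saa4 0%. No stretch of 100 bases was shared by any member.

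Total counts per library lay between 15573405 and 17199639. Sham replicate 1 stood apart, with 11.9% of its counts from mitochondrially encoded genes, against 5.52% to 8.49% in the other 11 libraries. Its correlation with the other sham libraries across tested genes (log CPM) was 0.950 and 0.956, against 0.978 or more within each resected group. It was also the lowest sham library for all 4 Saa genes. Hepatocyte markers were abundant in every library, with a summed level of 25980 to 27868 FPKM at 12 h and 40138 to 41855 FPKM in sham.

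The Saa family rose after resection. Bulk liver tissue was sequenced, so a difference in the number of cells of a type and one in RNA per cell cannot be told apart. Their summed share of all counts ranged over 0.0202% to 0.0335% in the sham libraries. It ranged over 0.441% to 0.630% by 3 h, 0.862% to 1.16% by 6 h, and 0.942% to 1.19% by 12 h. Against sham, 4 of 4 members rose at 3 h, 4 of 4 at 6 h and 3 of 4 at 12 h by edgeR. Of all tested genes 9.81%, 16.8% and 13.5% rose in the same comparisons, which share the sham libraries, and 11.7%, 18.2% and 15.3% fell. The groups did not overlap, with resected livers higher, for 4, 4 and 3 members, and for 18.9%, 23.1% and 19.7% of all tested genes. The median log2 difference of the members was 4.38 at 3 h, 5.54 at 6 h and 4.91 at 12 h, beside -0.021, -0.0089 and -0.017 over all tested genes. Saa3 passed the filter on low values only with its resected libraries counted, so its place in these counts and medians was partly set by the filter.

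Saa1 was at 5.08, 21.001 and 14.1 FPKM (fragments scaled by gene length and sequencing depth) in the sham libraries, 1161, 812 and 1242 FPKM at 3 h, 2366, 1998 and 1918 FPKM at 6 h, and 1927, 2008 and 1721 FPKM at 12 h (replicates 1, 2 and 3 in order). Every resected library lay far above every sham library, and the 6 h and 12 h libraries lay above all those at 3 h. Saa1 averaged 1072 ± 228 FPKM at 3 h and 13.4 ± 7.98 FPKM in sham (SD, n = 3 each), a log2 difference of 6.28 ± 0.43 (SE) or 77.6-fold, with an edgeR adjusted p of 1.23e-06. At 6 h it averaged 2094 ± 239 FPKM, a log2 difference from sham of 7.26 ± 0.45 or 153-fold (edgeR adjusted p = 2.14e-07). At 12 h it averaged 1886 ± 148 FPKM, a log2 difference from sham of 7.12 ± 0.45 (edgeR adjusted p = 5.60e-07). Among all 54532 genes ordered by FPKM, Saa1 moved up to ranks 32 to 35 at 12 h, against ranks 1630 to 4761 in sham.

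Saa2 had the largest change of the family. Its level was 1.22, 4.23 and 2.54 FPKM in the sham libraries, 1092, 751 and 1162 FPKM at 3 h, 2477, 1889 and 1789 FPKM at 6 h, and 1856, 2131 and 1647 FPKM at 12 h. The libraries follow the order of Saa1 within each group, with 3 h replicate 2 lowest at 3 h and 6 h replicate 1 highest at 6 h for both genes. Saa2 averaged 1002 ± 220 FPKM at 3 h and 2.66 ± 1.51 FPKM in sham (SD, n = 3 each), a log2 difference of 8.51 ± 0.43 or 364-fold (edgeR adjusted p = 1.47e-07). The log2 difference from sham was 9.55 ± 0.45 at 6 h, or 752-fold (edgeR adjusted p = 3.14e-08), and 9.45 ± 0.45 at 12 h (edgeR adjusted p = 4.60e-08). In the order of fitted rises among the 11451 tested genes, Saa2 held rank 5 at 3 h, rank 3 at 6 h and rank 2 at 12 h, and Saa1 held ranks 14, 15 and 6.

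Saa3 rose too, at a far lower level. It had 24, 50 and 76 counts in the sham libraries (0.542, 1.03 and 1.52 FPKM), and so the least precise values of the family. Saa3 passed the filter, at least 1 FPKM in at least 3 libraries, only with its resected libraries counted. It stood at 4.57, 3.06 and 10.6 FPKM at 3 h, 8.89, 14.8 and 21.4 FPKM at 6 h, and 8.91, 4.81 and 6.62 FPKM at 12 h. No resected library overlapped the sham range, while the 3 h, 6 h and 12 h ranges overlapped each other. Saa3 averaged 15.0 ± 6.25 FPKM at 6 h and 1.03 ± 0.487 FPKM in sham (SD, n = 3 each), a log2 difference of 3.83 ± 0.50 or 14.2-fold (edgeR adjusted p = 6.66e-05). The log2 difference from sham was 2.49 ± 0.49 at 3 h (edgeR adjusted p = 0.00271), and 1.85 without 3 h replicate 3. At 12 h it was 2.69 ± 0.49 (edgeR adjusted p = 0.00135). With PHx 6 h replicate 3 and sham replicate 1 both left out, the 6 h difference was 3.18.

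Saa4, the form known as constitutive, was the most abundant member in sham livers and rose early. It was at 83.3, 107.6 and 117 FPKM in the sham libraries, 301, 298 and 382 FPKM at 3 h, 284, 248 and 369 FPKM at 6 h, and 107.5, 171 and 164 FPKM at 12 h. The 3 h and 6 h libraries all lay above the sham libraries, and 12 h replicate 1 lay within the sham range. Saa4 averaged 327 ± 47.6 FPKM at 3 h and 103 ± 17.5 FPKM in sham (SD, n = 3 each), a log2 difference of 1.63 ± 0.21 or 3.09-fold (edgeR adjusted p = 0.00015). At 6 h the log2 difference from sham was 1.52 ± 0.21 (edgeR adjusted p = 0.00011). At 12 h it was 0.51 ± 0.21, which missed the threshold (edgeR adjusted p = 0.0822). It passed at 0.69 without 12 h replicate 1 (edgeR adjusted p = 0.0274), at 0.50 without the filter (edgeR adjusted p = 0.0448) and at 0.51 with the replicate number as a block (edgeR adjusted p = 0.0467).

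**Figure D1:**
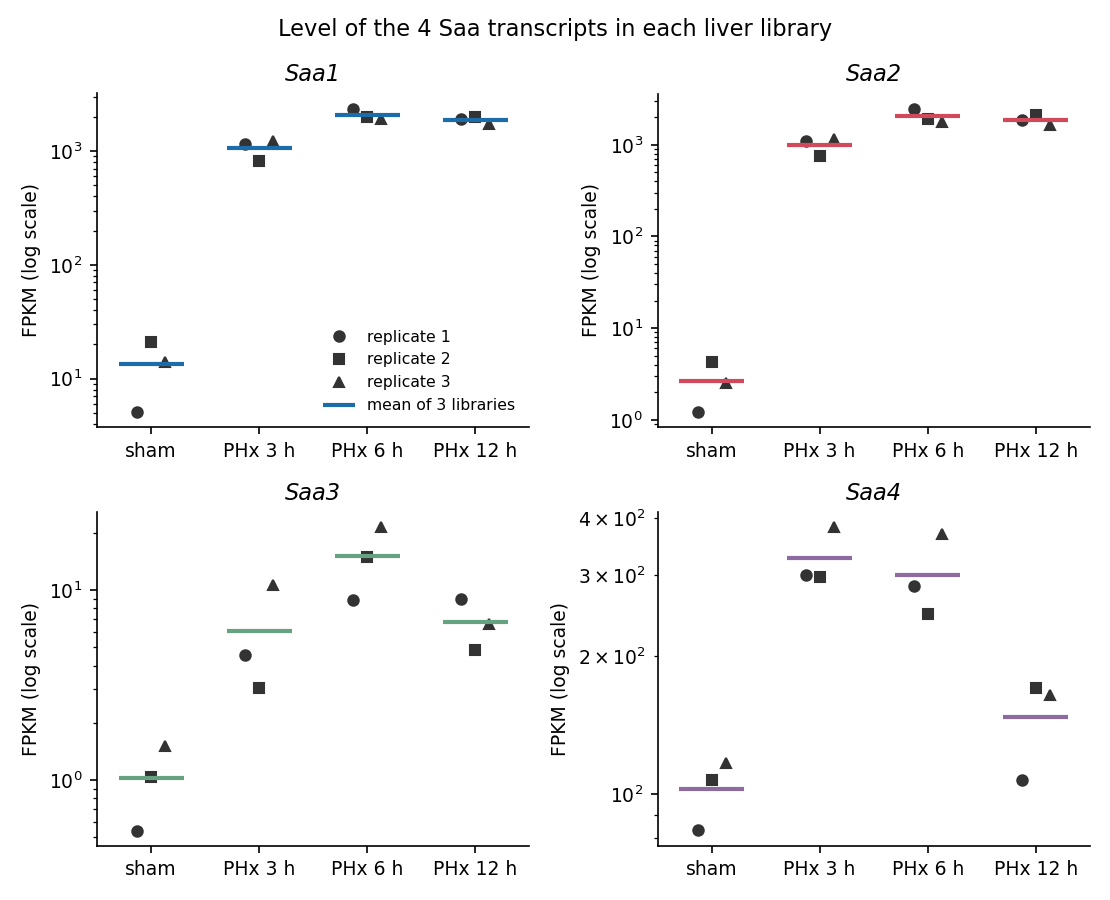
Level of each Saa transcript in FPKM (log axes with their own range) in the 12 liver libraries, by group; symbols are replicates and bars the mean of 3 libraries. Saa1 and Saa2 reach 1647 FPKM or more in each 6 h and 12 h library. Saa4 is at 107.5 to 171 FPKM at 12 h, against 83.3 to 117 FPKM in sham.

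**Figure D2:**
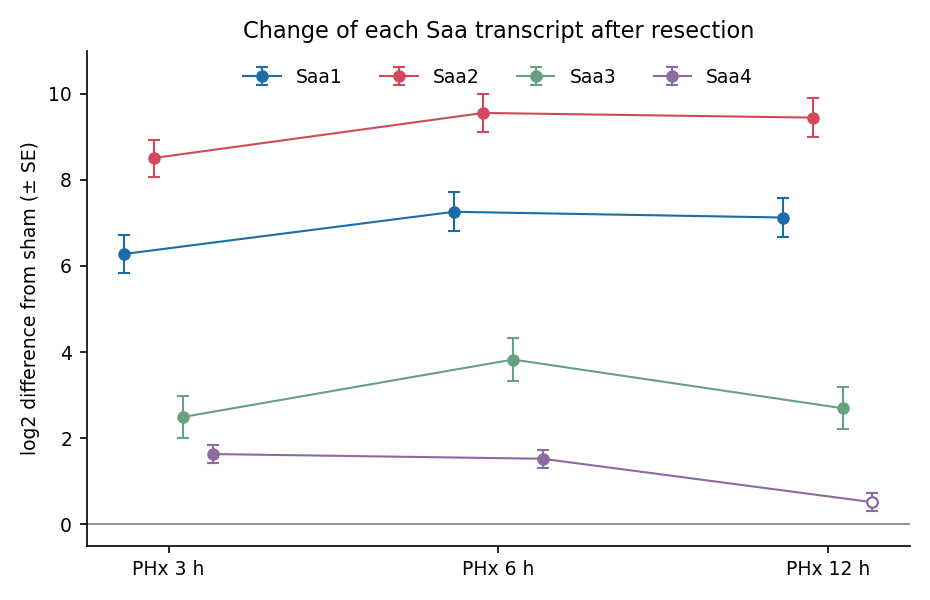
Fitted log2 difference from sham (edgeR, ± SE) of each Saa transcript at 3, 6 and 12 h after resection, n = 3 libraries per group; open symbols did not pass an adjusted p of 0.05. Saa2 lies highest at each time (8.51, 9.55 and 9.45), and Saa4 at 12 h (0.51) is the open symbol.

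The comparisons between times ask whether the members went on changing after 3 h. At 6 h against 3 h no member passed the test by edgeR, beside 8.63% of all tested genes, although 3 had an unadjusted p under 0.05. Saa1 averaged 2094 ± 239 FPKM at 6 h and 1072 ± 228 FPKM at 3 h (SD, n = 3 each), and all 3 libraries at 6 h were higher. Saa1 and Saa2 were the 2 members without overlap here, beside 17.4% of all tested genes higher without overlap. The log2 difference was 0.98 ± 0.35 for Saa1 (edgeR adjusted p = 0.101) and 1.05 ± 0.31 for Saa2 (edgeR adjusted p = 0.0532). Saa3 had a log2 difference of 1.33 ± 0.44 (edgeR adjusted p = 0.0779), and Saa4 one of -0.11 ± 0.21 (edgeR adjusted p = 0.795). These calls turned on the settings. DESeq2 called Saa1, Saa2 and Saa3, as did edgeR without the filter or without sham replicate 1, limma on log2(FPKM + 1) called Saa2, and limma on log2(FPKM + 0.1) called none. With only the 6 libraries compared, Saa1 and Saa2 were called. Saa3 was called at 1.98 without 3 h replicate 3 (edgeR adjusted p = 0.0224) and at 1.41 with the replicate number as a block (edgeR adjusted p = 0.0424), and Saa2 without sham replicate 2.

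Between 12 h and 6 h, 1 of 4 members fell and none rose, beside 12.6% and 12.1% of all tested genes. Saa4 averaged 147 ± 34.8 FPKM at 12 h and 300.3 ± 62.5 FPKM at 6 h (SD, n = 3 each), and the groups did not overlap, as for 25.8% of all tested genes in that direction. It fell by 1.01 ± 0.21 on the log2 scale (edgeR adjusted p = 0.0036). Saa1 (-0.13 ± 0.34, edgeR adjusted p = 0.814) and Saa2 (-0.11 ± 0.31, edgeR adjusted p = 0.831) did not pass, and both differences turned positive with library totals (0.17 and 0.19). Saa3 had a log2 difference of -1.13 ± 0.43 (edgeR adjusted p = 0.0734). The Saa3 difference passed the test with DESeq2 (-1.12), without the filter (-1.16), with only the 6 libraries compared (-1.10), and without sham replicate 1 (-1.13), 3 h replicate 3 (-1.13) or 6 h replicate 1 (-1.40).

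Between 12 h and 3 h, Saa2 rose and Saa4 fell, beside 17.8% and 18.2% of all tested genes. Saa4 averaged 147 ± 34.8 FPKM at 12 h and 327 ± 47.6 FPKM at 3 h, and fell by 1.12 ± 0.21 on the log2 scale (edgeR adjusted p = 0.00142). Saa2 averaged 1878 ± 243 FPKM at 12 h and 1002 ± 220 FPKM at 3 h, a log2 difference of 0.94 ± 0.31 (edgeR adjusted p = 0.0311). That call was lost with the replicate block (0.92, edgeR adjusted p = 0.0535), with limma on log2(FPKM + 0.1) (0.92) and with Saa1 and Saa2 summed (0.89). It was also lost without 3 h replicate 1 (1.01), 2 (0.77) or 3 (1.04), or without 12 h replicate 1 (0.94) or 2 (0.84). Saa1 had a log2 difference of 0.85 ± 0.35 (edgeR adjusted p = 0.0716), which passed with DESeq2 (0.84), without the filter (0.78), with library totals (1.02), with only the 6 libraries compared (0.84), without sham replicate 1 or 2 (0.85 each), and without both sham replicate 1 and PHx 6 h replicate 3 (0.85). Saa3 differed by 0.20 ± 0.44 (edgeR adjusted p = 0.744), and by 0.85 without 3 h replicate 3.

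By level, the order of groups was 6 h, 12 h, 3 h and sham for Saa1, Saa2 and Saa3, and 3 h, 6 h, 12 h and sham for Saa4. For Saa1, Saa2 and Saa3, the neighbours 6 h and 12 h did not differ past the test, nor did 12 h and 3 h for Saa1 and Saa3. For Saa4, neither 3 h and 6 h nor 12 h and sham differed past it.

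The members changed by unequal amounts, which a ratio within each library shows without regard to scaling between libraries. Saa2 stood to Saa1, in counts per gene length, at 0.241, 0.202 and 0.181 in the sham libraries, 0.941, 0.925 and 0.936 at 3 h, 1.05, 0.945 and 0.933 at 6 h, and 0.963, 1.06 and 0.957 at 12 h. The transcripts were thus near equal in each of the 9 resected libraries, while Saa1 was more than 4-fold above Saa2 in each sham library. The mean log2 ratio was -0.049 ± 0.073 in resected livers (SD, n = 9) and -2.28 ± 0.21 in sham livers (SD, n = 3). The difference of 2.23 had p = 0.00909 in a two-sided exact permutation test, the smallest p that 9 libraries against 3 can give, and 0.0109 adjusted over the 6 pairs of members. Whether reads shared by the copies bear on this ratio was not tested beyond the shared stretches given above.

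Relative to the acute phase forms, Saa4 fell. Its ratio to Saa1 was 5.12 to 16.3 in sham libraries and 0.259 to 0.367 in those at 3 h. It was 0.120 to 0.193 by 6 h and 0.0558 to 0.0955 by 12 h, with no overlap between any of the groups. The log2 ratio of Saa4 to Saa1 was lower by 5.89 in resected than in sham livers, and that of Saa4 to Saa2 by 8.11 (exact permutation p = 0.00909, adjusted p = 0.0109 each). Saa3 also fell behind, with log2 ratios lower by 4.09 to Saa1 and by 6.31 to Saa2 (exact permutation p = 0.00909, adjusted p = 0.0109 each). Between Saa4 and Saa3 the log2 ratio was lower by 1.802 in resected livers (exact permutation p = 0.0182, adjusted p = 0.0182), with the 3 h range of 36.1 to 97.1 overlapping the sham range of 76.8 to 151. That call was lost without sham replicate 1 (a difference of -1.55) and without sham replicate 2 (-1.82).

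**Figure D3:**
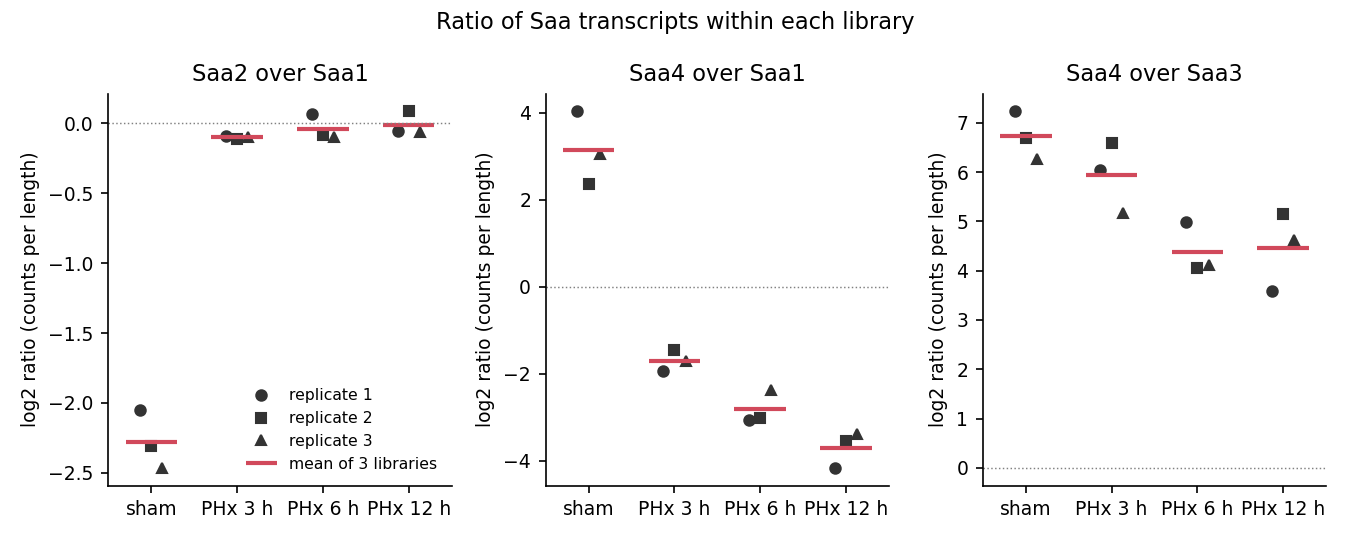
Log2 ratio of Saa2 to Saa1, Saa4 to Saa1 and Saa4 to Saa3 (counts + 0.5, per deposited gene length) within each of the 12 libraries, by group; symbols are replicates and bars the mean of 3 libraries. The ratio of Saa2 to Saa1 averages -2.28 in sham and -0.049 over the 9 resected libraries.

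Levels of different members depend on the gene length used. The deposited lengths of Saa1 (2478 bases), Saa2 (2518) and Saa3 (2606) are about 4 times or more those of their first-listed coding transcripts in GENCODE M21 (609, 606 and 555 bases). Retained introns or other long transcripts are annotated for all of them, whereas the deposited length of Saa4 (2094 bases) is that of its only transcript. Per length of that transcript, in FPKM, Saa1 reached 8521 ± 973 and Saa4 300.3 ± 62.5 at 6 h (SD, n = 3 each). The mean level of Saa1 was then 28.4 times that of Saa4, against 6.97 times with the deposited lengths. In sham livers Saa4 (103 ± 17.5 FPKM) remained above Saa1 (54.4 ± 32.5) on this scale, followed by Saa2 (11.1 ± 6.27) and Saa3 (4.84 ± 2.29). Comparisons of a member between groups are the same with either length.

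Within 250 kb of the members the table holds 24 other genes, of which 7 were tested. At 6 h against sham, where 16.8% of all tested genes rose and 18.2% fell, counts among so few genes are near that background. Of the 7, 2 rose, the lactate dehydrogenase gene Ldha (log2 difference 2.14 ± 0.21, edgeR adjusted p = 6.59e-06) and Spty2d1 (0.83 ± 0.16, edgeR adjusted p = 0.00161), and 1, Uevld, fell by 0.79. The nearest tested genes beside Saa2, Hps5 (-0.09) and the transcription and repair factor subunit Gtf2h1 (0.26), did not pass. Saal1, the Saa-like gene next to Saa3, stayed under the filter at 0.923 FPKM at 6 h and 0.539 FPKM in sham, and the Saa-ps pseudogene had 2 counts in all.

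**Figure D4:**
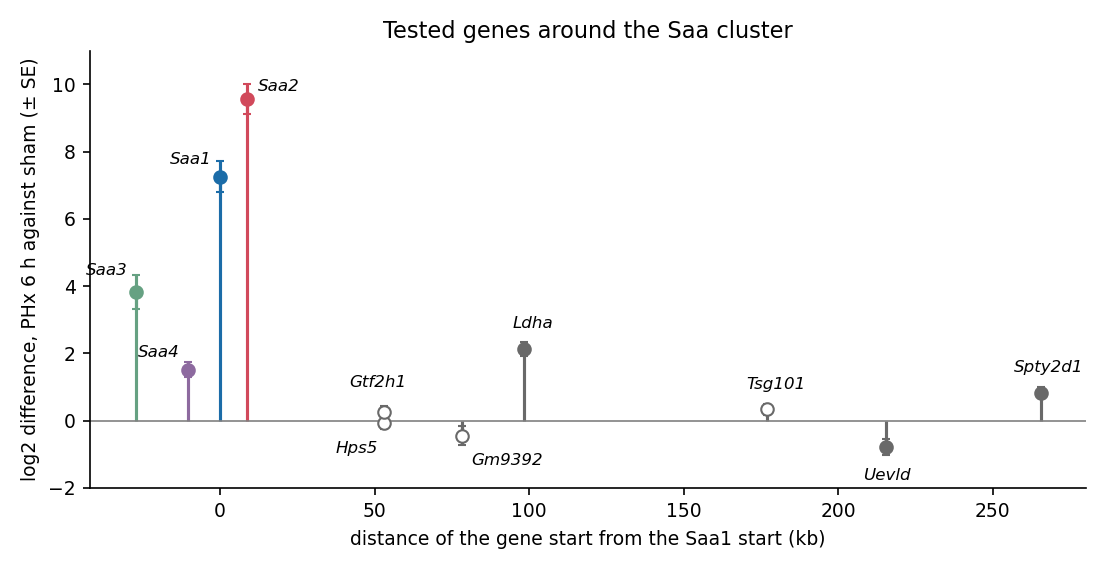
Fitted log2 difference at 6 h against sham (edgeR, ± SE, n = 3 libraries per group) of the 11 tested genes around the Saa cluster, placed by the distance of their start from that of Saa1 in kb; open symbols did not pass an adjusted p of 0.05. The Saa1 (7.26) and Saa2 (9.55) differences stand above those of all other genes shown, of which Saa3 (3.83) and Ldha (2.14) come next.

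Other acute phase genes also rose. Of 29 listed genes, all tested, 25 rose at 3 h, 27 at 6 h and 27 at 12 h against sham, with median log2 differences of 1.86, 2.78 and 1.98, and none fell. Of all tested genes 9.81%, 16.8% and 13.5% rose in these comparisons, and 11.7%, 18.2% and 15.3% fell. The list was chosen with earlier results of these data known, so its counts are a description. The siderophore-binding Lcn2 (10.29 ± 0.48 at 6 h) and the metal-binding Mt1 (8.88 ± 0.52) were of the size of Saa1 and Saa2. Between 12 h and 6 h, 17 of the 29 fell and 1 rose, with a median log2 difference of -0.62. Of all tested genes 12.6% fell and 12.1% rose between these times. The protein serum amyloid P (Apcs), a pentraxin found in amyloid deposits, averaged 1791 ± 167 FPKM at 6 h and 90.4 ± 14.8 FPKM in sham (log2 difference 4.28 ± 0.19, edgeR adjusted p = 3.14e-08). Of the 4 listed genes of amyloid-associated proteins, Apcs rose and the heparan sulfate proteoglycan Agrn fell by 0.75 at 6 h. Over all tested genes 16.8% rose and 18.2% fell there.

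Cytokines that induce Saa, and their receptors, were set against the 9.81%, 16.8% and 13.5% of all tested genes that rose and the 11.7%, 18.2% and 15.3% that fell at 3, 6 and 12 h. Of 13 listed cytokines and receptors, 10 were tested, of which 6 rose and 1 fell at 3 h, 5 rose and 2 fell at 6 h, and 3 rose and 1 fell at 12 h against sham. The interleukin 1 receptor Il1r1 averaged 116 ± 30.3 FPKM at 6 h and 5.66 ± 1.42 FPKM in sham (log2 difference 4.33 ± 0.31, edgeR adjusted p = 5.39e-07), and 1.70 ± 0.28 at 12 h. The oncostatin M receptor Osmr (3.32 ± 0.24) and the tumour necrosis factor receptor Tnfrsf1a (1.72 ± 0.17) rose at 6 h, and the leukaemia inhibitory factor receptor Lifr fell by 1.68 ± 0.20. Il6, Tnf and Osm, which encode the cytokines, stayed under the filter, with group means of at most 0.118 FPKM.

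Of 17 tested genes for signalling and transcription factors upstream of Saa, 6 rose and 3 fell at 3 h, 5 rose and 4 fell at 6 h, and 2 rose and 4 fell at 12 h. Their median log2 difference from sham was 0.09, 0.18 and -0.25. The rises at 3 h and 6 h were above the 9.81% and 16.8% of all tested genes, and at 12 h near the 13.5%. The falls at 3, 6 and 12 h were above the 11.7%, 18.2% and 15.3%, so the list exceeded the background in both directions. In a list of 17 genes, each of these gaps rests on few genes. Stat3 averaged 33.0 ± 0.305 FPKM at 6 h and 10.2 ± 0.428 FPKM in sham (log2 difference 1.67 ± 0.12, edgeR adjusted p = 5.39e-07), and 0.52 ± 0.12 at 12 h (edgeR adjusted p = 0.00466). Its feedback inhibitor Socs3 had a log2 difference of 4.45 ± 0.41 at 6 h and 2.89 ± 0.38 at 12 h. The C/EBP factor Cebpd rose by 2.60 ± 0.53 at 6 h (edgeR adjusted p = 0.00177), and at 12 h had a difference of 0.15 ± 0.53 that did not pass (edgeR adjusted p = 0.862). The glucocorticoid receptor gene Nr3c1 fell by 1.28 ± 0.18 at 6 h.

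HDL protein and enzyme genes gave counts near the background at 6 h, where 16.8% of all tested genes rose and 18.2% fell. At 3 h their rises were above the 9.81% of all tested genes and their falls below the 11.7%. At 12 h their falls were above the 15.3% and their rises below the 13.5%. Of 16 listed genes, all tested, 3 rose and none fell at 3 h, 4 rose and 2 fell at 6 h, and 1 rose and 7 fell at 12 h against sham, with median log2 differences of 0.29, -0.09 and -0.62. The apolipoproteins Apoa4 (2.11 ± 0.45) and Apoa5 (1.41 ± 0.29), the cholesterol exporter Abca1 (1.30 ± 0.23) and the cholesterol-esterifying enzyme Lcat (0.66 ± 0.16) rose at 6 h. Apoa1, the main HDL protein, named here after its values were seen, averaged 3403 ± 148 FPKM at 12 h and 5726 ± 2449 FPKM in sham (log2 difference -0.76 ± 0.26, edgeR adjusted p = 0.0389). The sham libraries spread widely here. The summed level of the 16 genes was 14234 to 30015 FPKM in sham and 12901 to 15197 FPKM at 12 h, so these ranges overlapped. Of 9 listed Saa receptors and binding partners 5 were tested. At 6 h the toll-like receptor Tlr2 (1.36 ± 0.37, edgeR adjusted p = 0.0109) and Selenos (0.63 ± 0.18, edgeR adjusted p = 0.0156), whose product was described as a serum amyloid A receptor in the sand rat, rose.

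Markers of macrophages and adipocytes, which can make Saa3, and of neutrophils were described beside the shares of all tested genes. At 3, 6 and 12 h against sham, 9.81%, 16.8% and 13.5% of all tested genes rose, and 11.7%, 18.2% and 15.3% fell. Macrophage markers were at or below these shares at 6 h, but their rises at 3 h and falls at 12 h were above them. Of 14 macrophage markers, all tested, 3 rose and none fell at 3 h, 2 rose and 1 fell at 6 h, and 1 rose and 7 fell at 12 h against sham. Their summed level was 208 to 242 FPKM at 3 h, 137 to 167 FPKM at 6 h and 97.0 to 123 FPKM at 12 h, against 144 to 202 FPKM in sham. At 6 h the scavenger receptors Marco (1.84 ± 0.41) and Cd163 (0.92 ± 0.23) rose, and the growth factor receptor Csf1r fell by 0.85. Of 13 neutrophil markers 4 were tested and 3 rose at 6 h, among them S100a9 (3.19 ± 0.43) and S100a8 (2.70 ± 0.52). The summed neutrophil marker level was 9.84 to 20.5 FPKM at 6 h, against 1.93 to 2.62 FPKM in sham, and 1 marker was at 0 in every library. In all, 8 of the 13 stayed under 1 FPKM in every library. At so low a sum in sham, most tested neutrophil markers passed the filter only with resected libraries counted. Their count of rises was thus partly set by the filter. Of 8 adipocyte markers 4 were tested and 2 rose at 6 h, Cidec and Fabp4. The summed level of the 8 was 23.6 to 41.4 FPKM at 6 h and 6.57 to 7.81 FPKM in sham. Among them, 3 stayed under 1 FPKM in every library. The part of these cells in the Saa3 values was not tested.

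Markers of hepatocytes, endothelial cells and stellate cells gave counts at 6 h near or below the 16.8% of all tested genes that rose and the 18.2% that fell. Of all tested genes 9.81% rose and 11.7% fell at 3 h, and 13.5% rose and 15.3% fell at 12 h. Rises at 3 h and, for hepatocyte and endothelial markers, falls at 12 h were above these shares, in lists of 10 genes each. Of 10 hepatocyte markers, all tested, 2 rose at 3 h and at 6 h, the amino acid breakdown enzyme Tat (1.66 ± 0.25 at 6 h) and the transcription factor Hnf4a (0.83 ± 0.15), and 5 fell at 12 h. Of 10 sinusoidal endothelial markers 3 rose at 3 h, 2 rose and 1 fell at 6 h, and 1 rose and 3 fell at 12 h. Of 10 stellate cell and fibroblast markers 4 rose at 3 h, 1 at 6 h, and 2 rose and 1 fell at 12 h. Of 6 markers of intestinal epithelium, another source of serum amyloid A, only Fabp2 was tested, and it did not pass in any comparison with sham.

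The profiles most like each member were found by Pearson correlation of log2(FPKM + 1) over the 12 libraries, among 9858 tested protein-coding genes, as a description. The libraries share their groups, so a high correlation says mainly that the group levels ran alike. For Saa1 the most alike were Nnmt, which encodes nicotinamide N-methyltransferase (r = 0.987), Lcn2 (r = 0.986) and the uracil-DNA glycosylase gene Ung (r = 0.978). The same 3 genes came first for Saa2, with r = 0.989 for Lcn2, 0.984 for Nnmt and 0.980 for Ung. For Saa4 they were the polyamine acetyltransferase gene Sat1, Mtss1 and the small heat shock protein gene Hspb8 (r = 0.972, 0.972 and 0.971). For Saa3 they were the ribosomal protein gene Rps3a1, the nucleolar protein gene Nifk and 1110004F10Rik (r = 0.949, 0.948 and 0.948). Among the members, Saa1 and Saa2 correlated at r = 0.998, Saa3 with Saa1 at 0.864, and Saa4 with each of the other members at 0.695 to 0.696.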

How the data were processed

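Poly(A) RNA of mouse liver was sequenced in 12 libraries, 3 per group, with groups taken from the sample titles. The deposited table lists 54532 genes with, per the file headers, counts, FPKM and a gene length. The authors' counts are whole numbers without scaling. Recomputing them shows that the deposited FPKM equal counts over gene length and over a library size scaled by median-ratio factors. The submitters' processing notes name the build GRCm38 (mm10) and, without their roles, DESeq2 1.20.0, featureCounts 1.5.0-p3, HISAT2 2.0.5, fastp and CASAVA 1.8. Read length, strand and the handling of reads with several matches are not given in the sources used here.

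A filter of at least 1 FPKM in at least 3 libraries left 11451 genes. These were tested on counts with the quasi-likelihood test of edgeR (two-sided, TMM scaling, 1 model of all 4 groups), and p-values were adjusted by Benjamini and Hochberg over all of them, with calls at adjusted p under 0.05. Standard errors came from the F statistics. Precision rests on 15573405 to 17199639 counts a library and on the spread between replicates (biological coefficient of variation 20.6%). Ratios of members within a library (counts + 0.5, per gene length) were compared by a two-sided exact permutation test over samples. Promoter sequences came from RefSeq (GRCm38.p6) and transcripts from GENCODE M21. The test was checked on simulated data. Versions were R 4.3.3, edgeR 4.0.16, limma 3.58.1, DESeq2 1.42.0, SciPy 1.17.1 and Biopython 1.88.

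Alternatives were median-ratio scaling, library totals, TMM without acute phase, Saa and mitochondrially encoded genes, no filter, DESeq2, limma on log2(FPKM + 1) and log2(FPKM + 0.1), a fit of the 6 compared libraries, a replicate block, each library left out, sham replicate 1 and PHx 6 h replicate 3 both left out, and Saa1 and Saa2 summed. Levels per coding transcript length were added after the data were seen. The members and gene lists were chosen with earlier results of these data known. Genes outside the members are named by a rule: the 3 protein-coding genes most like each member, tested genes within 250 kb, and up to 4 called genes of each list with the largest difference at 6 h, or 2 by level where none was called.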

Additional observations from a re-analysis of the deposited data

Results flagged for a closer look

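Of the members' changes against sham, 3 differed between times by the edgeR test of the times themselves. The Saa4 difference from sham was smaller at 12 h than at 6 h, by a log2 difference of -1.01 (edgeR adjusted p = 0.0036), and smaller at 12 h than at 3 h, by -1.12 (edgeR adjusted p = 0.00142). Each held in all 22 alternatives. In both cases all 3 libraries at 12 h lay below the 3 of the earlier time. The Saa2 difference was larger at 12 h than at 3 h, by 0.94 (edgeR adjusted p = 0.0311), with all 3 libraries at 12 h higher, and lost its call in 8 of 23 alternatives.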

How the results depend on the processing

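At 3 and 6 h against sham all 4 members were called in all 22 alternatives, with log2 differences of 5.89 to 7.74 for Saa1, 8.16 to 10.06 for Saa2, 1.68 to 4.22 for Saa3 and 1.19 to 1.74 for Saa4. With Saa1 and Saa2 summed, the differences were 6.98 and 7.99. At 12 h, 3 or 4 members were called. Calls between times were less stable, and the cause was not tested. At 6 h against 3 h the count of 0 members became 3 without the filter and with DESeq2, 2 with only the 6 compared libraries or without both doubted libraries, 1 with limma on log2(FPKM + 1) or the replicate block, and 0 to 3 with a library left out; the 26 listed genes became 48 without the filter and 13 to 44 with a library left out. At 12 h against 6 h the count of 1 member became 2 without the filter, with DESeq2 or with only the 6 libraries, and 1 to 2 with a library left out; the 59 listed genes became 35 with library totals and 38 to 75 with a library left out. At 12 h against 3 h the count of 2 members became 1 with limma on log2(FPKM + 0.1) or the replicate block, and 1 to 3 with a library left out.

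Uncalled differences that changed sign were Saa1 (0.17) and Saa2 (0.19) at 12 h against 6 h with library totals. With a library left out, Saa2 at 12 h against 6 h ranged from -0.21 to 0.05 (0.047 without 6 h replicate 1), Saa4 at 6 h against 3 h from -0.29 to 0.01 (0.012 without 6 h replicate 2), and Saa3 at 12 h against 3 h from -0.11 to 0.85. Library totals moved the median of all tested genes to -0.20 at 3 h and -0.32 at 6 h against sham, and the share of rises among called genes to 25.0% and 22.0%, against 45.5% and 48.1%; between 12 h and 6 h the share was 84.8% against 49.0%. Counts over all genes, which set the background shares, moved over 1.5-fold in 4 comparisons. At 3 h against sham 2468 became 1532 with only the 6 libraries. At 12 h against sham 3298 became 5263 without sham replicate 1, 2112 without 12 h replicate 3 and 5494 without both doubted libraries. At 6 h against 3 h, 988 became 1540 with DESeq2, 1492 without the filter, 1485 with only the 6 libraries and 400 to 2111 with a library left out. At 12 h against 6 h 2828 became 1853 without 6 h replicate 2.

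Without both doubted libraries the differences in log2 ratio were 2.34 (Saa2 to Saa1), -4.04 (Saa3 to Saa1), -5.49 (Saa4 to Saa1), -6.39 (Saa3 to Saa2), -7.84 (Saa4 to Saa2) and -1.45 (Saa4 to Saa3), none past the threshold. Fewer samples raise the smallest p there. With a library left out, Saa4 to Saa3 ranged from -2.04 to -1.55. Same-numbered libraries deviated together, at a correlation over 0.1, in 4 of 18 pairs (-0.255 to 0.173). The labels state no pairing, and these values cannot show whether same-numbered libraries shared a batch. The replicate block changed no call of a member beyond those given.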
